A study of Mus musculus with 27 samples.

Results

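Obp1a, Obp2a, Lcn3, Lcn4, Odam and Pigr are genes for proteins that glands and epithelium release into, or carry across into, the mucus of the nose. They were chosen by name, and all 6 of the 6 had a probe on the array, 1 probe each, among 29922 probes and 16637 different gene symbols. Obp2a was listed there under its older symbol Lcn13. Each value below comes from a probe annotated to 1 of these genes, and the levels of different probes are not compared with each other.

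The tissue was olfactory mucosa, the lining of the nasal cavity that holds the odor-sensing neurons, from female mice of the FVB strain aged 25 days. In unilateral naris occlusion 1 nostril was closed by cautery. The group called occluded is the mucosa behind the closed nostril and the group called open is the mucosa behind the untouched nostril of the same mice, so both sides come from cauterised animals. The group called normal came from other mice, which were given a sham cautery on the muzzle. Each group had 3 biological replicates and each replicate 3 arrays, 27 arrays in all, hybridised in 1 colour. The labels do not say whether mucosa was pooled, and they do not say how the tissue was cut out. Replicates of equal number on the occluded and open sides were read as 1 mouse, which gives 6 individuals. The values do not settle this reading: over all probes, occluded 2 deviated from its group more like open 3 (r = 0.386) than like open 2 (r = -0.004). Each difference between the sides of a mouse below rests on it.

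Odorant-binding proteins are small secreted lipocalins, barrel-shaped carriers that hold hydrophobic molecules such as odorants in a central pocket. Lateral nasal glands, the glands of the septum and the vomeronasal glands make them in bulk, and the watery secretion flows over the epithelium. Obp1a and Obp2a are named for odorant binding, and Lcn3 and Lcn4 are the lipocalins first described from the glands of the vomeronasal organ and nasal septum. Odam, odontogenic ameloblast-associated protein, is best known from the enamel organ and from the epithelium that attaches gum to tooth, and is also made by secretory glands. Pigr, the polymeric immunoglobulin receptor, carries dimeric IgA through epithelial cells and releases it into mucus.

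The promoters are shown because 3 of the genes, Lcn3, Lcn4 and Obp2a, had similar values over the replicates. The 150 bases before the start of each gene were taken from RefSeq (GRCm38.p6), which held all 6 genes. They are written 5′ to 3′ with matches to searched motifs in capitals. The window of Obp1a is chrX:78091375-78091524 on the minus strand, that of Obp2a chr2:25699924-25700073 on the plus strand and that of Lcn3 chr2:25765383-25765532 on the plus strand. The window of Lcn4 is chr2:26671283-26671432 on the minus strand, that of Odam chr5:87884860-87885009 on the plus strand and that of Pigr chr1:130826534-130826683 on the plus strand. The Obp2a window lies inside the span that RefSeq lists for the gene.
Obp1a: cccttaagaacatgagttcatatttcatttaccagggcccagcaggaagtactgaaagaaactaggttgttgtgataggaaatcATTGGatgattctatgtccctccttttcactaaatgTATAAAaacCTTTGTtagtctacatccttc
Obp2a: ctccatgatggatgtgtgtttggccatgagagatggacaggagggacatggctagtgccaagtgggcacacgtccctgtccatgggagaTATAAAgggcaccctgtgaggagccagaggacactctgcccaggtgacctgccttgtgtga
Lcn3: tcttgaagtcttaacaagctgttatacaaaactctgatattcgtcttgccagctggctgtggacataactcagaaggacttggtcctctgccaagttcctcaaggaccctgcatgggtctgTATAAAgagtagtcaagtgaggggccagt
Lcn4: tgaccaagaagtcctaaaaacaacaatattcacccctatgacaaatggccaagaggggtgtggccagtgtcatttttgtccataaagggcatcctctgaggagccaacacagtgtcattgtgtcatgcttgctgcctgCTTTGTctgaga
Odam: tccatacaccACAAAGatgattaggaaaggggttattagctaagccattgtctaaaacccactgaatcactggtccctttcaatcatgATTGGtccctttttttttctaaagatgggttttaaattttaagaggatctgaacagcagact
Pigr: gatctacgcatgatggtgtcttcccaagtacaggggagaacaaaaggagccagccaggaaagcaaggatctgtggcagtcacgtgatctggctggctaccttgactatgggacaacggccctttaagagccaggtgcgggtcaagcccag
Searched on both strands, over 250 bases before the start, were the TATA box (TATAAA), the site read by the factor NF-Y (CCAAT) and the core site of the SOX family (ACAAAG), and the hits did not overlap. TATAAA began 30 bases before the start in Obp1a, 29 in Lcn3 and 61 in Obp2a, and these letters were not in the windows of Lcn4, Odam and Pigr. Of 32851 promoters, 12.4% held TATAAA, 33.8% held CCAAT and 16.5% held ACAAAG. The NF-Y site was found in Obp1a, Odam and, 215 bases before the start and so outside the printed stretch, in Lcn3. The SOX site was found in Obp1a, Lcn4 and Odam. Among the genes other than Pigr, Obp2a and Lcn4 shared the 10 bases ataaagggca at 60 and 69 bases before their starts, a run found in 22 promoters (0.067%). Lcn4 and Odam, whose values did not run together, shared 11 bases, atgaccaagaa, at unlike distances, a run found in 13 promoters (0.0396%). These are matches of letters and nothing more.

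An array's median intensity lay between 123 and 274, and between 36 and 80 probes per array were saturated, that is within 99.5% of the array's highest value. A saturated probe gives only a lower bound. The noise limit of an array, set at 3 times the quadratic mean of the negative readings, lay between 11.6 and 24.1, and none of the 6 genes fell below it on any array. Omp, which marks mature olfactory neurons, was saturated on 26 of the 27 arrays, so the labelled tissue was there. Markers of Bowman's glands, the glands of the olfactory mucosa itself, were above the noise limit on every array for all 12 genes listed. In whole tissue, fewer cells of a type and less RNA per cell cannot be told apart.

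Saturation touched the 4 lipocalins. The Obp2a probe was saturated on 12 of 27 arrays, 3 occluded, 6 open and 3 normal. The Obp1a probe was saturated on 9 arrays, 3 in each group, and the Lcn3 probe on 6, of which 3 were occluded, 3 normal and 0 open. The Lcn4 probe was saturated on 3 arrays, all of normal replicate 2. In each of these cases all 3 arrays of a replicate were saturated together. Odam and Pigr were saturated on 0 arrays.

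Of the odorant carriers, Lcn4 had the widest range. On the occluded side its intensity was 22.4 ± 3.44 (SD over 3 arrays, as for all intensities below) in replicate 1, 58132 ± 2220 in replicate 2 and 2605 ± 192 in replicate 3. On the open side it was 2444 ± 204, 10472 ± 672 and 31864 ± 1751 in replicates 1 to 3. In normal mucosa it was 146 ± 21.5 in replicate 1, saturated on all 3 arrays of replicate 2 and 3342 ± 226 in replicate 3. Occluded replicate 1 lay just above the noise limits of its arrays (12.4 to 13.2), while occluded replicate 2 was among the brightest signals of its arrays, and the 3 groups overlapped. Between occluded replicate 1 and normal replicate 2 the intensity differed at least 2940-fold before normalization. This is a lower bound because the upper value is saturated, as for the other lipocalins below. Such bounds hold for the deposited intensities. Normalized values spanned 2413-fold for Lcn4, 30.6-fold for Lcn3, 20.2-fold for Obp2a and 61.2-fold for Obp1a.

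Lcn3 ran through the replicates in a similar order. Its intensity on the occluded side was 1953 ± 248, saturated in replicate 2, and 5982 ± 838 in replicate 3. It was 6371 ± 415, 18893 ± 1619 and 49375 ± 2414 on the open side. In normal mucosa it was 1888 ± 352, saturated in replicate 2, and 10356 ± 415 in replicate 3. The groups overlapped, and the intensities of the 9 replicates spanned at least 34.8-fold.

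Obp2a was bright nearly everywhere. The occluded side gave 2987 ± 299, saturation in replicate 2, and 30254 ± 1509 in replicate 3. The open side gave 34964 ± 4404 in replicate 1 and saturation in replicates 2 and 3. Normal mucosa gave 7761 ± 841, saturation in replicate 2, and 56954 ± 2916 in replicate 3. Occluded replicate 1 was the lowest, and the intensities spanned at least 22.0-fold. Since 4 of the 9 replicates were at the ceiling, differences among the bright replicates were not measurable.

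Obp1a, on the X chromosome, followed an order that differed in part. Its occluded values were 20713 ± 3404, saturated in replicate 2, and 6320 ± 588 in replicate 3. Its open values were 9725 ± 621, 1246 ± 133 and saturation in replicate 3. Its normal values were 2970 ± 347, saturation in replicate 2, and 14512 ± 721. The lowest replicate was open 2, where Lcn3, Lcn4 and Obp2a were in the middle or upper part of their ranges, and each group held 1 saturated replicate. The intensities spanned at least 52.8-fold.

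Odam followed an order of its own. Its intensity was 13363 ± 2379 in occluded replicate 1, 447 ± 53.2 in replicate 2 and 646 ± 41.9 in replicate 3. It was 689 ± 129, 744 ± 16.1 and 58.5 ± 18.3 on the open side. It was 2541 ± 840, 6733 ± 1967 and 687 ± 49.7 in normal mucosa. Occluded replicate 1, the lowest for Lcn4, was the highest for Odam, and open replicate 3, saturated for Obp1a, was its lowest. Its next highest replicate, normal 2, was saturated for all 4 lipocalins. With no saturated array, the intensities spanned 228-fold.

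Pigr was narrow. Its intensity was 1634 ± 69.7, 1221 ± 46.1 and 1339 ± 220 on the occluded side. On the open side it was 1626 ± 64.5, 2406 ± 441 and 3714 ± 296, and in normal mucosa 1292 ± 149, 1895 ± 188 and 1384 ± 78.1. After normalization the 3 occluded replicates all lay below the 3 open ones, and the intensities spanned 3.04-fold.

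**Figure D1:**
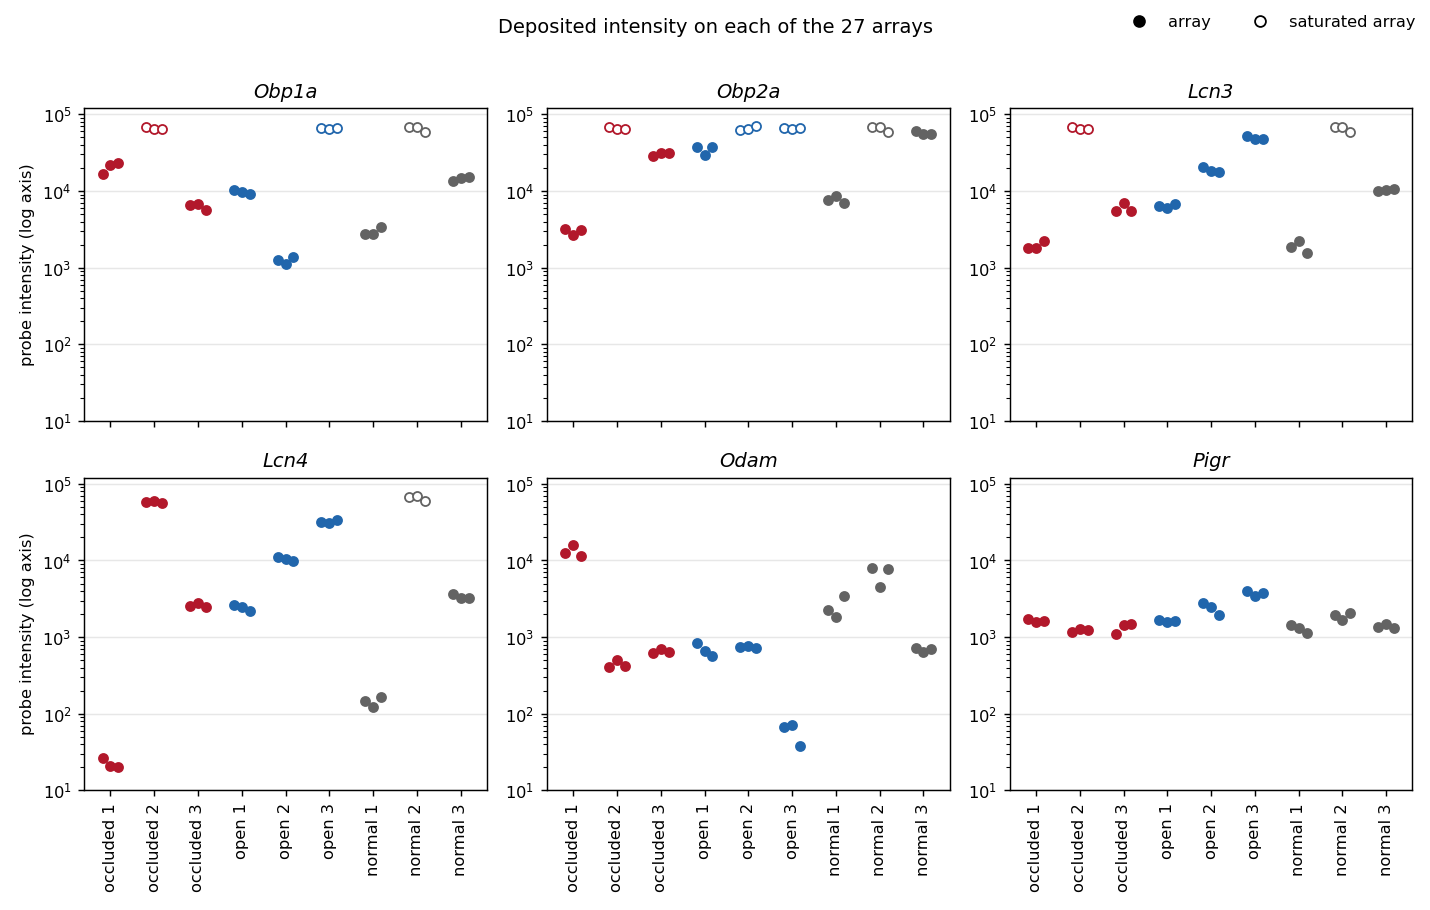
Deposited probe intensity (log axis) of each gene on each of the 27 arrays, 3 arrays side by side for every replicate of the occluded, open and normal groups; open circles are saturated arrays. The 3 arrays of a replicate lie close together while replicates of 1 group lie far apart for every gene but Pigr, and Lcn4 runs from 22.4 in occluded replicate 1 to saturation in normal replicate 2.

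The spread therefore lay between replicates and not between arrays. From here on values are log2 of the quantile-normalized intensity, and the spread within groups is the SD of the replicate values pooled over the 3 groups. For Lcn4 it was 4.13, against an SD of 0.17 between arrays of a replicate, a ratio of 24.2. It was 2.36 for Obp1a, 2.26 for Odam, 2.18 for Lcn3 and 1.62 for Obp2a, with SDs between arrays of 0.15, 0.29, 0.13 and 0.09. Pigr had 0.30 between replicates and 0.12 between arrays. The median probe of the array had 0.36 between replicates, 0.32 between arrays and a ratio of 1.03.

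Ranked by spread among all 29922 probes, Lcn4 was at rank 2, Obp1a at rank 35, Odam at rank 37, Lcn3 at rank 41 and Obp2a at rank 84. Among the 21415 probes above the noise limit on all arrays, Lcn4 had the widest spread. Pigr was at rank 18520. The saturated arrays bound the SDs of the lipocalins, both between replicates and between arrays, because their upper values could not be read. The ranks describe genes that were picked with earlier results of these data known.

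**Figure D2:**
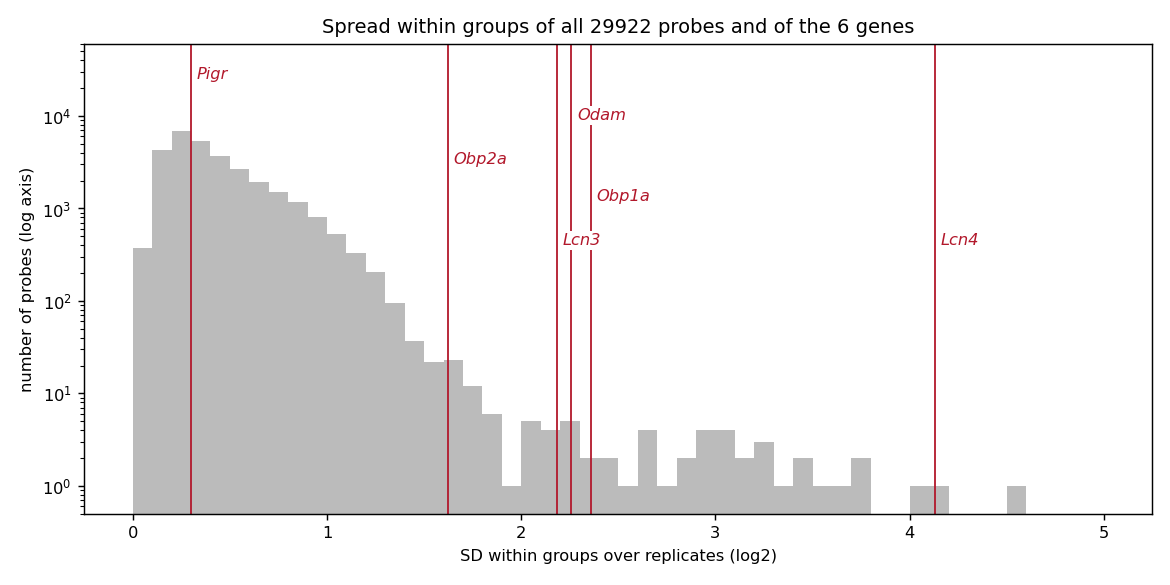
Histogram of the SD within groups over replicates (log2, horizontal axis) for all 29922 probes, with the number of probes on a log axis; red lines mark the 6 genes. Pigr (0.30) lies in the bulk, while Obp2a (1.62), Lcn3 (2.18), Odam (2.26), Obp1a (2.36) and Lcn4 (4.13) lie in the thin upper tail.

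The first comparison, occluded against open, asked how closing a nostril affects expression on that side. limma fitted across all probes called 66 of 29922 (0.221%) at an adjusted p under 0.05, and 0 of the 6 genes. Unadjusted, 1852 probes and 1 of the 6 genes, Pigr, were under 0.05. The median difference of the 6 was -0.94 against 0.00 over all probes, with 2 above 0 and 4 below. The 66 calls became 0 without replicate 1 of both sides, 35 without replicate 2 and 6 without replicate 3, and no alternative setting or left-out replicate brought in 1 of the 6.

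Pigr had a mean of 10.40 ± 0.39 (SD, n = 3) on the occluded side, 11.22 ± 0.34 on the open side and 10.61 ± 0.04 in normal mucosa. The occluded side was lower in 3 of 3 mice, by differences of -0.20, -0.69 and -1.57. After normalization its groups did not overlap, which held for 6.7% of all probes. In the deposited intensities they did, occluded 1 (1634) being just above open 1 (1626). The fitted difference was -0.82 ± 0.23 (SE; 95% interval -1.34 to -0.30; limma, adjusted p = 0.417). It did not pass, and it was -0.45 without replicate 3. Pigr's transport partners were not higher or lower past the test either. Jchain, the chain that joins IgA into dimers, was below the noise limit on 17 of 27 arrays.

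Odam had means of 10.54 ± 2.77, 8.20 ± 2.34 and 11.21 ± 1.47 (SD, n = 3) on the occluded side, on the open side and in normal mucosa. The occluded side was higher than the open side of the same mouse by 3.93 in replicate 1 and 3.45 in replicate 3, and lower in replicate 2 (-0.35). The interval of the difference ran from -0.29 to 4.98 (limma, adjusted p = 0.871).

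Lcn4 had means of 10.53 ± 5.55, 13.21 ± 1.62 and 11.81 ± 4.22 (SD, n = 3) in the same order. Its differences between the sides were -6.81, 2.53 and -3.76 in mice 1 to 3, so it was lower on the occluded side in 2 of 3. The fitted difference was -2.68 ± 2.22 (SE; 95% interval -7.72 to 2.36; limma, adjusted p = 0.987), and it was -0.62 without replicate 1 and -5.29 without replicate 2. The interval holds differences of several doublings in either direction.

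Lcn3 differed by -1.83, 1.86 and -3.23 between the sides of mice 1 to 3, and Obp2a by -3.65, 0.02 and -1.36. The sign of Lcn3 followed that of Lcn4 in all 3 mice. For Obp2a in mouse 2 both sides were saturated, so the value of 0.02 measures nothing, and 1 side was saturated for Lcn3 in mouse 2 and for Obp2a in mouse 3. The Lcn3 fit gave -1.06 ± 1.20 (SE; limma, adjusted p = 0.997), with means of 13.10 ± 2.58 occluded, 14.16 ± 1.28 open and 13.52 ± 2.45 normal. The Obp2a means were 14.10 ± 2.22 occluded, 15.76 ± 0.39 open and 14.97 ± 1.68 normal, with an interval of -3.66 to 0.33 for occluded minus open (limma, adjusted p = 0.902). The small SD of the open group was set by saturation.

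Obp1a differed by 0.91, 5.93 and -3.63 in mice 1 to 3, with 1 side saturated in mice 2 and 3. Its means were 14.23 ± 1.84 occluded, 13.16 ± 2.95 open and 13.90 ± 2.14 normal. The fitted 1.07 ± 1.50 (SE; limma, adjusted p = 0.997) turned to -1.36 without replicate 2. In mice 2 and 3 the sign for Obp1a was that of Lcn3 and Lcn4, and in mouse 1 it was the opposite.

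**Figure D3:**
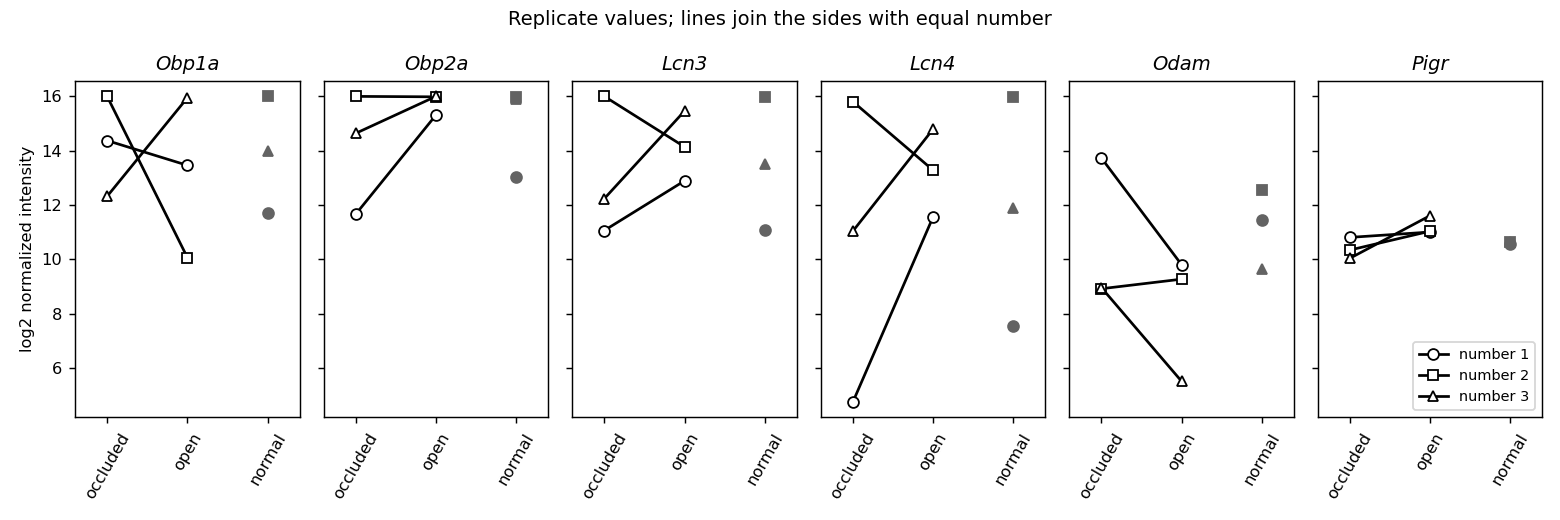
Log2 normalized intensity of each gene in every replicate; black lines join the occluded and open sides with equal replicate number (circle 1, square 2, triangle 3), and grey symbols are the normal mice. The lines run in opposite directions for Obp1a, Lcn3 and Lcn4, and for Pigr all 3 run from a lower occluded to a higher open value.

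Occluded against normal asked how the closed side compares with that of sham-treated mice. limma called 2 of 29922 probes (0.00668%), 861 being under 0.05 unadjusted, and 0 of the 6 genes by either count. Groups without overlap were found for 6.67% of all probes and for 0 of the 6. The differences ran from -1.28 ± 2.84 for Lcn4 to 0.33 ± 1.92 for Obp1a (SE), with all adjusted p at 1.0 in limma. The median was -0.55 against 0.01 over all probes. The order of the replicates was much wider than these means. Without normal replicate 2 the Lcn4 difference was 0.81 and that of Lcn3 0.80, both of the opposite sign.

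Open against normal asked about the ventilated side. limma called 0 of 29922 probes (0%), 477 being under 0.05 unadjusted, and 0 of the 6 genes were under 0.05 unadjusted. The largest difference was that of Odam, -3.01 ± 1.48 (SE; 95% interval -6.38 to 0.35; limma, adjusted p = 1.0), and the open values 9.80, 9.27 and 5.51 overlapped the normal values 11.46, 12.54 and 9.63. Pigr was 0.60 ± 0.29 higher on the open side and its groups did not overlap, as for 4.27% of all probes (limma, adjusted p = 1.0). In the deposited intensities they overlapped, open 1 (1626) lying below normal 2 (1895). Lcn4 (1.40), Lcn3 (0.64) and Obp2a (0.79) were above 0 and Obp1a (-0.74) below, each within 1 SE. The 3 comparisons share their groups, so these values are not independent of those above.

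For each of the 6 genes the order of the 3 group means therefore has no neighbours that differ past the test. By mean, Lcn3, Lcn4 and Obp2a were lowest occluded and highest open, Odam and Obp1a were lowest open, and Pigr was lowest occluded and highest open.

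Lcn3, Lcn4 and Obp2a ran through the replicates in a similar order, and Obp1a shared it in part. In each of the 3 groups replicate 1 was the lowest for Lcn3, Lcn4 and Obp2a. The highest for Lcn3, Lcn4 and Obp1a was replicate 2 in occluded, 3 in open and 2 in normal mucosa. Obp1a was lowest in occluded 3, open 2 and normal 1. For Obp2a open replicates 2 and 3 were both saturated. Normal replicates share only a number with the others. Over the 9 replicate values, Pearson's r was 0.95 between Lcn3 and Lcn4 (Spearman's rho 0.98), 0.94 between Lcn4 and Obp2a (0.93) and 0.84 between Lcn3 and Obp2a (0.95). Obp1a had an r of 0.57 with Lcn3 (rho 0.57), 0.39 with Lcn4 (0.58) and 0.21 with Obp2a (0.52). Odam was at -0.45 with Lcn3, -0.56 with Lcn4 and -0.63 with Obp2a. Pigr was between 0.13 and 0.23 with the 4 lipocalins. These r describe 9 values from 6 mice, in which the sides of a mouse share that mouse, all genes share arrays, and saturated values are cut off at the top.

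Other tissue markers were set beside this order. Over the 12 respiratory epithelium markers, all measured, the summed normalized intensity was lowest in replicate 1 of each group: 101684 occluded, 87012 open and 92362 normal, against 108848 to 130311 in the other replicates. Over 10 sustentacular cell markers it was 136463, 136114 and 147331 in replicate 1, against 155061 to 178804. Over 12 Bowman's gland markers it was 45674, 46436 and 50479, against 54232 to 73478. Bright probes weigh most in such sums, and that of respiratory epithelium holds Bpifa1 (15.46 to 16.00), saturated on 12 arrays. These 3 sums were lowest in replicate 1 in each group, as was that of the vomeronasal markers given below. The part of these tissues in the result was not tested. Other lists followed that order in part. The sums of bone and cartilage markers, of neutrophil and macrophage markers and of BPI-fold genes were lowest in replicate 1 of the open and normal groups. In occluded replicate 1 they were highest of their group (21553, 21879 and 168846). The sum of mucins and mucus proteins did likewise, at 52022 occluded, 59451 open and 44355 normal in replicate 1. The sum of mature neuron markers, which holds the saturated Omp, was highest of its group in open replicate 1 (223292), close to open 2 (222632). Sox9 and Sox10, regulators on the Bowman's gland list, went against that list's sum: both were highest in replicate 1 of each group. Their ranges were narrow, 12.13 to 12.60 for Sox9 and 11.14 to 11.95 for Sox10.

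Vomeronasal tissue was checked because Lcn3 and Lcn4 are known from its glands. Without Lcn3, Lcn4 and Obp2a, 8 markers on that list were measured. Their sum was 85961 to 93890 occluded, 85851 to 92730 open and 88388 to 93557 normal. In each group the lowest sum was that of replicate 1, as for Lcn3, Lcn4 and Obp2a. Omp, saturated and at 15.99 to 16.00, weighs most in it and narrows its range. The part of vomeronasal tissue in the lipocalin values was not tested. Trpc2, the channel of vomeronasal neurons, lay between 7.61 and 8.82 in the 9 replicates and H2-M9 between 8.66 and 10.08, while Lcn4 ran from 4.74 to 15.98. These are markers of neurons, and no marker of the vomeronasal glands other than the lipocalins was listed. Vmn1r65 was below the noise limit on 15 of 27 arrays.

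Some secreted proteins were high in the 3 replicates where Obp1a was saturated, which were also the highest of their groups for Lcn3 and Lcn4. They were chosen after their values were seen, except BC051076, which was found by the rule for likeness. Scgb1b27, a secretoglobin, was at 13.65 in occluded 2, 14.26 in open 3 and 12.31 in normal 2, and between 8.04 and 8.38 in the other 6. Dmbt1, a scavenger receptor secreted by glands, was at 13.60, 13.94 and 14.98 in those 3 and between 7.66 and 10.55 elsewhere. The major urinary protein Mup5, a lipocalin, was at 10.06, 10.24 and 7.88, against 3.32 to 6.16. BC051076 was at 13.40, 13.45 and 11.84, against 4.99 to 9.15, with an r of 0.93 to Obp1a. Klk1, tissue kallikrein of salivary glands, was at 9.13 in occluded 2 and 9.57 in open 3, and at 2.38 in normal 2. With Lcn3 and Obp1a respectively, r was 0.82 and 0.78 for Scgb1b27, 0.89 and 0.78 for Dmbt1 and 0.84 and 0.78 for Mup5. It was 0.72 and 0.56 for Klk1, and 0.77 and 0.93 for BC051076. Occluded 2 and open 3 bear different numbers and so were read as different mice.

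Normal replicate 2, saturated for all 4 lipocalins, also stood apart in cartilage genes. The 10 bone and cartilage markers summed to 36699 there, against 11830 and 18030 in the other normal replicates, 10533 to 21553 occluded and 12495 to 19377 open. Matn1, a cartilage matrix protein, was at 11.79 and between 2.19 and 4.13 elsewhere, and Col2a1, cartilage collagen, at 13.33 against 8.03 to 9.41. In occluded replicate 2, where Lcn4 was at 15.81, the marker sum was 10533. The part of cartilage in the lipocalin values was not tested. With normal replicate 2 left out, the difference of Lcn4 between open and normal was 3.49.

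**Figure D4:**
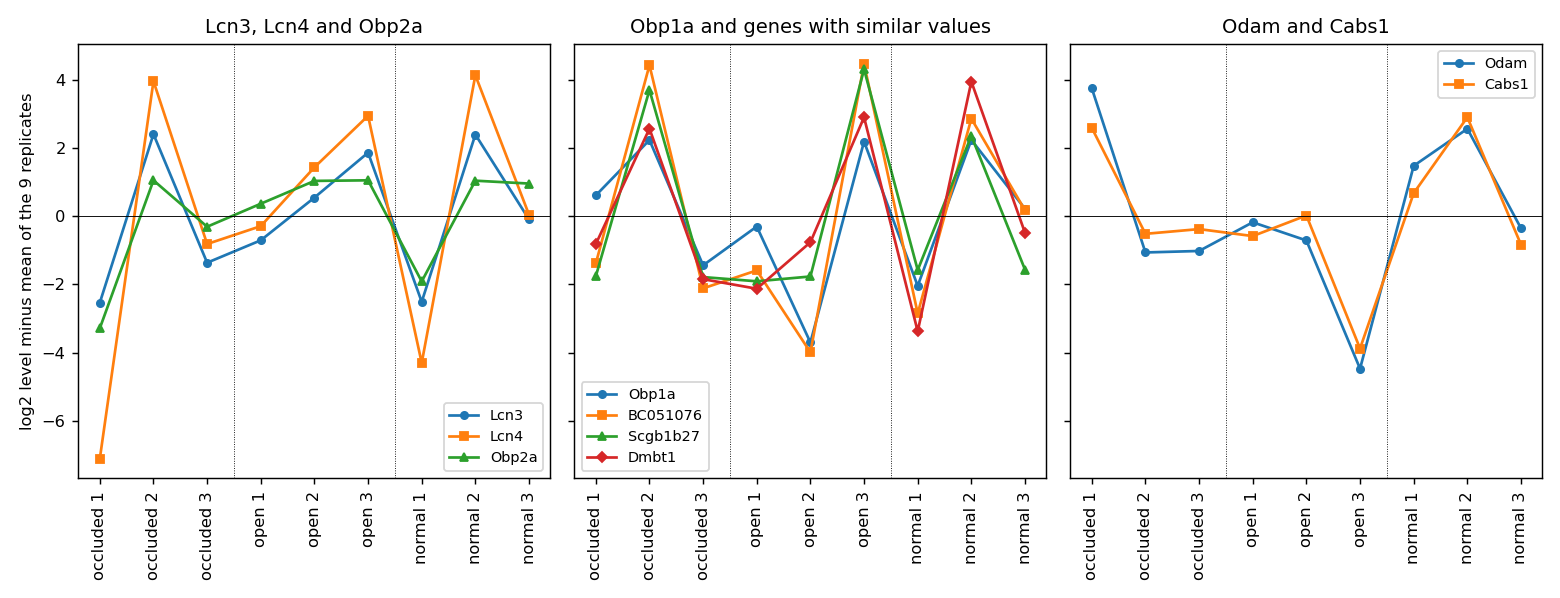
Log2 level minus the mean of the 9 replicates (vertical axis) for Lcn3, Lcn4 and Obp2a (left), for Obp1a with BC051076, Scgb1b27 and Dmbt1 (middle), and for Odam with Cabs1 (right), in the occluded, open and normal replicates, with dotted lines between groups. The left panel has its lowest point of each group in replicate 1, the middle panel is high in occluded 2, open 3 and normal 2, and Odam and Cabs1 run together with r = 0.96.

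The genes most like each of the 6 were taken among 13417 named genes with probes above the noise limit and unsaturated on all arrays, by r over the 9 values. For Odam the first was Cabs1, a calcium-binding protein known from sperm and salivary gland, at 0.96, followed by Nme2, Plin1, Chad and Kif12. Cabs1 was at 12.57 in occluded 1 and 12.88 in normal 2, and at 6.11 in open 3, the lowest replicate for both. It lies on chromosome 5 with Odam, and 2 protein-coding genes, BC037156 and Csn3, lie between them in the RefSeq table. Csn3, the kappa-casein gene, ran otherwise: it was at 12.44 in open 3, its highest replicate, and had an r of -0.74 with Odam.

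For Obp2a the most like were Zbtb4 (0.98), Rdh13, Tab2, Afdn and Tmem201, and for Lcn4 Tmem201 (0.96), Atp6v1a, Scaf8, Arhgap17 and Wdfy3. For Lcn3 they were Cdc25a (0.93), Smim10l1, Zfp160, Il22ra2 and Tmed8. For Obp1a they were Rhobtb1 (0.94), BC051076, Pi4kb, Daw1 and Itpr2. A high r did not mean a wide range: Tmem201 spanned 0.48 and Rhobtb1 0.65 on the log2 scale, while BC051076 spanned 8.46 and Cabs1 6.78. For Pigr they were Casp4 (0.92), Hsd3b5, Traf3ip3, Lpcat3 and Cd14, of which Casp4 spanned 1.34 and Hsd3b5 0.33.

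The teeth lie near the nose, so enamel organ markers were read beside Odam. Of 9 other markers measured, Dspp was below the noise limit on all 27 arrays, Mmp20 on 18 and Ambn on 17. Amelx, amelogenin, lay between 9.10 and 9.84, and the 9 markers without Odam summed to 4663 to 6185 occluded, 4224 to 6329 open and 5505 to 6252 normal. In occluded replicate 1, where Odam was highest, this sum was 5562. Klk4, an enamel protease, was lowest in open replicate 3 (7.75), as was Odam, and spanned up to 9.71.

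The wider lipocalin list held 18 measured genes of 31, and 0 passed the test in any comparison (limma; unadjusted p under 0.05 for 3, 1 and 0 genes in occluded against open, occluded against normal and open against normal). Its medians were -0.02, -0.05 and -0.04 against 0.00, 0.01 and 0.00 over all probes. Ambp, the precursor of alpha-1-microglobulin, was 4.42 ± 0.76 (SE) above the open side and 4.57 ± 0.97 above normal on the occluded side (limma, adjusted p = 0.0842 and 0.490). Its occluded values were 7.87, 7.46 and 8.18, against 2.75 to 3.78 on the open side and 1.06 to 5.71 in normal mucosa, and it was below the noise limit on 9 of 27 arrays. Lcn6 (0.62 ± 0.26) and Lcn2, the siderophore-binding lipocalin (-0.84 ± 0.36), came next in occluded against open and did not pass. In occluded against normal Lcn6 (0.57) and Ptgds (0.32), and in open against normal Lcn2 (0.81), Ptgds (0.29) and Lcn10 (-0.39), were the next by p. The spread within groups of the list's other genes ran from 0.17 for Lcn12 and 0.19 for Apod to 1.41 for Ambp and 3.11 for Mup5.

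Of the antimicrobial and gland secretory proteins, 24 of 28 were measured, and 1 passed, in occluded against open: Chil4, a chitinase-like protein, fell by 3.29 ± 0.45 (SE; limma, adjusted p = 0.0345). No probe of the array passed without replicate 1 of both sides, with the replicate number as a fixed block, or with no normalization, so this call ends there as well. The list's medians were -0.09, -0.04 and 0.05 in the 3 comparisons, and 4, 2 and 1 genes were under 0.05 unadjusted. Next were Scgb3a2 (-0.68) and Wfdc12 (1.49) in this comparison, Scgb3a2 (-1.02), Chil4 (-2.71) and Defb1 (1.11) in occluded against normal, and Lyz1 (0.50), Scgb3a2 (-0.35) and Camp (0.67) in open against normal, none past the test. Of these, Defb1 was below the noise limit on all 27 arrays, Wfdc12 on 24 and Scgb3a2 on 14. The probe of Scgb1c1, a secretoglobin of Bowman's glands, was saturated on 26 arrays. Dmbt1 (2.93), Pip (2.23) and Ltf, lactoferrin (1.09, with 3 saturated arrays), had wide spreads within groups, and Wfdc2 (0.08) and Lyz1 (0.20) narrow ones.

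The BPI-fold proteins, 9 of 15 measured, and the mucins and mucus proteins, 17 of 20, had 0 genes past the test in any comparison (limma; unadjusted 2, 0 and 0 for the first and 1, 0 and 0 for the second). The Bpifb3 probe was saturated on 21 arrays, and Tff2, a trefoil peptide of mucus, lay between 14.38 and 15.05. In occluded against open the smallest p were those of Bpifa3 (0.41), Bpifb6 (-0.32) and Bpifb2 (0.50), and of Fcgbp (0.80), Muc6 (0.37) and Agr2 (-0.50). In occluded against normal they were those of Bpifa1 (0.18), Bpifb2 (0.27) and Bpifa5 (0.16), and of Agr2 (-0.54), Fcgbp (0.54) and Muc1 (0.22). In open against normal they were those of Bpifa3 (-0.40), Bpifb6 (0.28) and Bpifb2 (-0.24), and of Muc6 (-0.40), Muc13 (-1.07) and Muc20 (-0.51). The list medians lay between 0.03 and 0.11 for the BPI-fold genes and between -0.18 and 0.00 for the mucins. In spread within groups Muc5b, the main gel-forming mucin of these glands, was at 0.59.

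The genes of IgA transport and plasma cells, 10 of 12 measured, and the secretory calcium-binding phosphoprotein genes around Odam, 12 of 14, also had 0 past the test (limma; unadjusted 1, 0 and 0 for each list). Medians were -0.18, -0.09 and 0.10 for the first and 0.05, 0.02 and -0.01 for the second. After Pigr the smallest p in occluded against open were those of Mzb1 (-0.25) and Jchain (-0.94). Ccr10 (-0.39) and Xbp1 (0.13) stood beside Pigr in occluded against normal, and Ccr10 (-0.52) and Jchain (1.09) in open against normal. Xbp1, a regulator of secretory cells, lay between 14.83 and 15.36. Beside Odam stood Csn1s2b (0.48) and Ambn (-0.33) in occluded against open, Csn1s1 (-0.29), Ambn (-0.35) and Csn3 (0.83) in occluded against normal, and Csn1s2b (-0.33) and Csn3 (1.32) in open against normal. The caseins Csn2 and Csn1s2a of the same list had spreads of 0.32 and 0.28 within groups.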

How the data were processed

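RNA was amplified with amino-allyl nucleotides and labelled with Cy5, per the labels' protocols. The deposited table gives each probe's intensity on a linear scale; the sources used here do not give the scanner, the background method, any normalization or a genome build. Before log2, readings of 0 or less were raised to 0.912, the smallest positive reading. Because array medians spanned 1.15 (log2; limit 0.2), quantile normalization was applied, and each replicate's 3 arrays were then averaged, with saturated readings kept as given. A limma model (limma 3.58.1, R 4.3.3, statmod 1.5.0 and, for reading, version 1.17.8 of data.table) took the 9 values in 3 groups, treated the mouse as a random block (correlation 0.389) and gave two-sided p for 29922 probes, adjusted by Benjamini-Hochberg (threshold 0.05). It was tested on simulated data.

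Both sides come from the same individuals, per the design text of the series, but pairing them by equal number is an interpretation of sample titles. Deviations of same-numbered sides correlated at 0.516, -0.004 and 0.142, against 0.386 for occluded 2 with open 3 and 0.265 for occluded 3 with open 2. Whether replicates were separate animals is otherwise unstated. The p-values rest on the spread between these samples, which may not be the spread between mice. The 3 replicate values of each group limit the precision.

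The array's annotation named 21020 probes and left 8902 unnamed; older symbols were updated through RefSeq synonyms (GRCm38.p6), and a gene with several probes (3566 genes) is represented by its brightest. Coordinates are given for promoter windows alone. Probe sequences were not used here, so signal from related lipocalin genes was not tested. Members, gene lists and tests were chosen with earlier results of these data known. Named by rule were the 6 genes, every list member past the threshold, up to 3 list members with the smallest p per comparison, the member of each list with the highest mean reading (no ranking of genes), and the 5 genes most like each of the 6. Named outside it, after their values were seen, were Scgb1b27, Dmbt1, Mup5, Klk1, Matn1, Col2a1, Pip, Ltf, Lcn12, Apod, Wfdc2, Muc5b, Csn2, Csn1s2a and the markers.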

Additional observations from a re-analysis of the deposited data

How the results depend on the processing

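In 16 alternatives for each comparison, 0 of the 6 genes passed the test (limma), and the spread within groups, recomputed without normalization, with median centring, an offset, the median of arrays and saturated values left out, moved farthest, in proportion, for Pigr (0.30 to 0.40 without normalization). Leaving saturated values out could not change the values of the 6 genes. Readings were kept where all 3 arrays of a replicate were saturated, as in each saturated replicate of the lipocalins. Differences changed sign only where replicates were left out. With a replicate number left out on both sides, occluded minus open ranged from -2.53 to 0.015 for Lcn3 and from -1.36 to 3.42 for Obp1a. Occluded minus normal turned to 1.61 for Lcn4, 0.34 for Obp2a and 0.59 for Lcn3 without replicate 1, to -0.55 for Obp1a and 0.14 for Odam without replicate 2, and to 0.0051 for Lcn3 and 0.12 for Odam without replicate 3. The lowest of these values were -3.92, -1.82, -1.88 and -2.27 for Lcn4, Obp2a, Lcn3 and Odam, and the highest for Obp1a was 1.28. Open minus normal turned to -0.010 for Lcn3 without replicate 3 and to 0.81 for Obp1a without replicate 2, where the values ran up to 1.27 for Lcn3 and down to -2.14 for Obp1a.

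With a normal replicate left out, occluded minus normal ran from -3.41 to 0.81 for Lcn4, from -1.65 to 0.80 for Lcn3 and from -0.76 to 1.38 for Obp1a. Open minus normal ran from -0.73 to 3.49 for Lcn4, from -0.58 to 1.87 for Lcn3, from -1.83 to 0.31 for Obp1a and from -0.18 to 1.29 for Obp2a. Without replicate 2 of all 3 groups, an alternative chosen after seeing the data, Obp1a was -1.36 in occluded against open and 1.86 in open against normal, and Odam 0.80 in occluded against normal.

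The 66 probes called in occluded against open were 0 with the replicate number as a fixed block, 3 with no replicate block, 0 with no normalization, 37 with median centring and 14 with the 2 groups alone. They were 0 to 35 with a replicate number left out on both sides, 45 to 49 with a normal replicate left out and 0 without replicate 2 of all groups. The 2 in occluded against normal were 0 with the fixed replicate block, 0 with no normalization, 18 with an offset of 50, 5 with the median of arrays, 13 without the dimmest 30%, 0 with the 2 groups alone and 0 to 1 with replicates left out. Open against normal had 0 in each. The block changed no call of the 6 genes, and the cause of these shifts was not tested. Same-numbered sides did not all correlate above 0.1, and occluded 2 and 3 each correlated best with the other's open number, so the pairing by number rests on the titles. Saturation limits Obp1a, Obp2a, Lcn3 and Lcn4.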

Other observations

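Sva, seminal vesicle antigen, was at 9.21 in occluded replicate 1 and between 3.60 and 5.93 in the other 8, the same replicate in which Odam and Cabs1 were high. Mup3, a major urinary protein, was at 10.96 in occluded 2, 10.19 in open 3 and 9.55 in normal 2, against 7.14 to 7.64 elsewhere, and 2310057J18Rik was at 13.97, 14.33 and 11.97, against 7.37 to 8.28. In normal replicate 2 the cartilage genes Ucma (11.93), Cytl1 (14.92) and Snorc (10.11) were also above their other replicates (up to 4.72, 8.98 and 6.24). All were chosen after their values were seen, among the genes with the widest spread within groups or by name.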
